A study of Homo sapiens with 8 samples.

Results

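miR-221-3p and miR-222-3p are the mature strands cut from the 3′ arms of neighbouring hairpins on the human X chromosome. They were taken as the rows of the deposited table named miR-221 or miR-222 with any arm, which gave 2 entries of 2867, of which 903 were known and 1964 predicted microRNAs. No 5p entry of either hairpin was in the table used here. The pair was chosen by its fitted folds between the groups in these same libraries, which had opposite signs. The values that compare the groups below are therefore a description of these libraries, with no test.

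The libraries are small RNA from HEK293, an established human embryonic kidney cell line, harvested after 48 h. In 4 of them the cells had been transfected with an antisense oligonucleotide (ASO) at 100 nM, a synthetic strand built to pair with a chosen RNA, and the library names give miR-31 as its target. The other 4 came from cells with no ASO, and no label says whether these controls went through a mock transfection. No group received an unrelated ASO, so an effect of this ASO and an effect of any ASO cannot be told apart. The stated question was whether the ASO had effects on RNAs other than its target.

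A microRNA is cut from a hairpin in a longer transcript, first by Drosha in the nucleus and then by Dicer in the cytoplasm, and 1 strand is loaded into an Argonaute protein. The loaded strand finds its messenger RNAs mainly through its seed, the bases near its 5′ end. miR-221 and miR-222 are best known for repressing the cyclin-dependent kinase inhibitors CDKN1B (p27) and CDKN1C (p57) and the receptor KIT. They are abundant in many proliferating and vascular cells.

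The 2 mature strands are shown because their shared start and different remainder are what set them apart. Capitals mark the seed (bases 2 to 8), and the sequences are from RefSeq on GRCh38:
miR-221-3p: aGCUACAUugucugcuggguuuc
miR-222-3p: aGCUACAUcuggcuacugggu
The strands are the same over their first 8 bases and then part. Over the 21 positions that both have, 11 bases were identical, and the longest run shared beyond the start was the 6 bases cugggu, which begins at base 15 of miR-221-3p and at base 16 of miR-222-3p. Of the 2370 mature human microRNAs in the RefSeq table used here, these were the only 2 with the seed GCUACAU.

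The hairpins are shown to place the mature strands (capitals) within them:
MIR221: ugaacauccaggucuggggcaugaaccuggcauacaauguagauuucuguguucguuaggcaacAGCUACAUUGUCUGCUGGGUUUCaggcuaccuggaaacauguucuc
MIR222: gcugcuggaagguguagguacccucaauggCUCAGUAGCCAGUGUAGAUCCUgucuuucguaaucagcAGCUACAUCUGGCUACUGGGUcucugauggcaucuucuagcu
RefSeq also lists a mature strand of the 5′ arm for MIR222, the earlier capitals in its line. MIR221 lies at chrX:45746157-45746266 and MIR222 at chrX:45747015-45747124, both on the minus strand of GRCh38, with 748 bases between them. In GENCODE release 29 both fall inside the long noncoding RNA gene MIR222HG, chrX:45745211-45770274, in the intron of transcript MIR222HG-201 and in no exon. On this strand MIR222 comes first, and MIR221 lies 56 bases before the last exon. Whether both hairpins came from 1 transcript in these cells was not measured.

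The libraries held 8168828 to 11677123 counts, so that 1 count was 0.0856 to 0.122 CPM (counts scaled to the library total). Levels are CPM adjusted by TMM, which corrects for differences in composition between libraries (factors 0.964 to 1.02), and are given as mean ± SD over n = 4 libraries a group. No label ties the libraries to separate cultures, so the spread may be technical. The target entry, miR-31-5p, stood at 776, 916, 1018 and 637 CPM in the 4 ASO libraries in number order, and at 350, 657, 880 and 1056 CPM in the 4 controls in number order. It averaged 837 ± 166 CPM with ASO, against 736 ± 305 CPM in controls (log2 fold change 0.19), so its mean was not lower with ASO. Its groups overlapped, so it gave no check of the labels. Control library 1 stood apart among the controls. It was the lowest control for 47 and the highest for 27 of the 79 known microRNAs that averaged at least 1000 CPM and were above 0 in every library, and it differed from the mean of the other controls by more than 0.5 on the log2 scale in 17 of them.

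Both members were among the abundant microRNAs of these cells. miR-221-3p took 1.12 to 1.34% of all counts in the ASO libraries and 0.673 to 1.17% in the controls. miR-222-3p took 0.773 to 0.808% in the ASO libraries and 0.859 to 0.926% in the controls. By mean level over all 8 libraries miR-221-3p was entry 24 and miR-222-3p entry 28 of the 745 tested.

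miR-222-3p had a lower mean with ASO. Its level was 8042, 7662, 8093 and 7631 CPM in the 4 ASO libraries in number order, from 78377, 90711, 89980 and 78547 counts. It was 8946, 9143, 9062 and 9177 CPM in the 4 controls in number order, from 90160, 85508, 75171 and 103970 counts. Every ASO library lay below every control. Of the 745 entries tested, 5.23% did so and 8.32% were separated in either direction. The groups were also apart with plain CPM, median-ratio scaling and quantile normalization. The means were 7857 ± 244 CPM with ASO, against 9082 ± 103 CPM in controls. The fitted log2 fold change was −0.21 (SE 0.04), which is 1.16-fold lower with ASO (95% interval 1.08 to 1.23). That interval takes no account of the choice of the pair by this fold, so nothing is read from its bounds. In size, 58.4% of entries tested had a log2 fold change at least as large. Those entries reach down to a mean count of 10, where folds can be far less exact (SE 1.78 for miR-302c-5p). The share among equally abundant entries was not computed.

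miR-221-3p had a higher mean with ASO, but its groups overlapped. Its level was 11703, 13256, 11961 and 11098 CPM in the 4 ASO libraries in number order, from 114053, 156929, 132990 and 114237 counts. It was 7011, 9502, 10797 and 11595 CPM in the 4 controls in number order, from 70663, 88864, 89562 and 131369 counts. Control library 4 stood above ASO library 4, and control library 1 stood far below all the rest. The means were 12004 ± 909 CPM with ASO, against 9726 ± 2005 CPM in controls. The fitted log2 fold change was 0.30 (SE 0.15), a fold of 1.23 with a 95% interval of 0.966 to 1.58, which again takes no account of the choice. Of the entries tested, of any abundance, 44.3% had at least as large a log2 fold change.

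**Figure D1:**
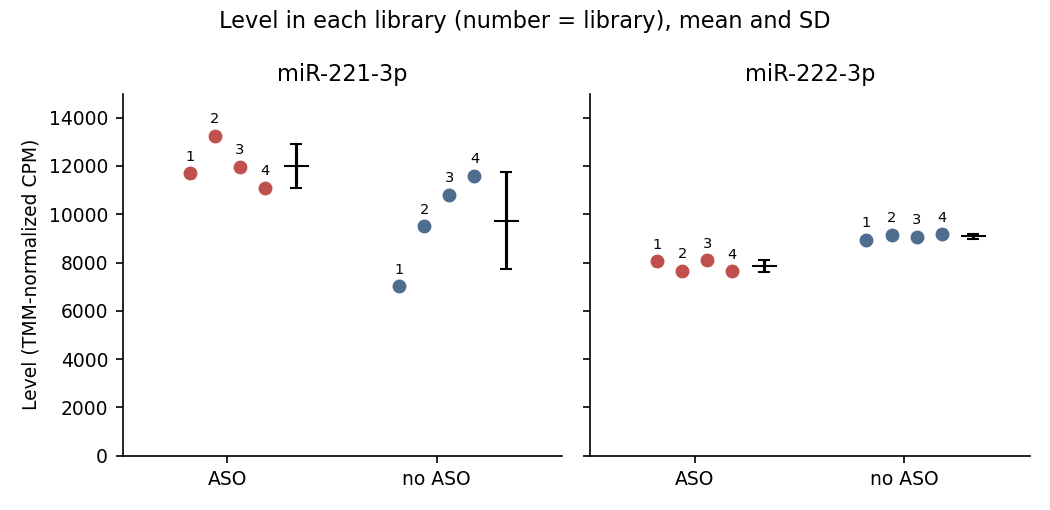
Level of miR-221-3p (left) and miR-222-3p (right) in TMM-normalized CPM, with 1 point per library (the number is the library's) and the mean ± SD of each group of 4. The miR-222-3p points of the ASO libraries (7631 to 8093 CPM) lie below those of the controls (8946 to 9177 CPM), while the miR-221-3p points overlap (11098 to 13256 CPM with ASO, against 7011 to 11595 CPM in controls).

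The miR-221-3p difference depended in part on control library 1. Without that library the log2 fold change of miR-221-3p was 0.19, and the controls averaged 10631 ± 1056 CPM (n = 3). Without both control library 1 and ASO library 2, its lowest and its highest library, it was 0.14, an alternative chosen after seeing the data. The log2 fold change of miR-222-3p was −0.20 and −0.19 in the same settings. With quantile normalization of all libraries the log2 fold change was 0.10 for miR-221-3p and −0.37 for miR-222-3p. In the edgeR quasi-likelihood test over all 745 entries 0 of the 2 members were called at an adjusted p under 0.05, where 0.134% of entries were called (1 entry, miR-503-5p, and 78 at an unadjusted p under 0.05). miR-222-3p was called by DESeq2, as were 2.85% of the entries it tested, and by edgeR among entries with a mean count of at least 100, as were 1.4% of those. Nothing is read from these counts, since the same contrast chose the members.

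The members also differed in their spread between libraries. On the log2 scale the SD of miR-222-3p was 0.045 in the ASO libraries and 0.016 in the controls. Its control value was the lowest of the 79 abundant microRNAs, whose median SD was 0.115 with ASO, against 0.15 in controls. That rank depends on the scaling: the control SD of miR-222-3p was larger than that of 10 of the 79 with plain CPM (0.050), of 5 with median-ratio scaling (0.026) and of 49 with quantile normalization (0.18, where that of miR-221-3p was also 0.18). The SD of miR-221-3p was 0.11 in the ASO libraries, close to that median, and 0.32 in the controls, where 12 of the 79 were more variable, or 27 with quantile normalization. The highest control held 1.65 times as much miR-221-3p as the lowest, and 1.03 times as much miR-222-3p. Without control library 1 the control SD of miR-221-3p was 0.15 (n = 3), where 18 of the 79 were more variable, and its highest control held 1.22 times as much as its lowest. Wilson 95% intervals of the counts were far narrower than this: from 6683 to 6782 CPM, before TMM, for miR-221-3p in control library 1. They cover counting error only.

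The ratio of miR-221-3p to miR-222-3p within a library does not depend on depth or on a scaling factor per library. It was 1.46, 1.73, 1.48 and 1.45 in the 4 ASO libraries in number order, and 0.784, 1.04, 1.19 and 1.26 in the 4 controls in number order. All 4 ASO libraries had a higher ratio than all 4 controls. The ratios of the groups were apart in 6 of 31 pairs of neighbouring hairpins (19.4%), this pair included, as described below. Choosing the pair for folds of opposite sign also draws its ratios apart. ASO library 2 stood above the other ASO libraries, which were nearly equal. The log2 ratio averaged 0.61 ± 0.12 with ASO, against 0.07 ± 0.31 in controls, which differ by 0.54, or 1.45-fold. Without control library 1 the controls averaged 0.22 ± 0.14 (n = 3) and the difference was 0.39.

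The sum of the 2 microRNAs was closer between the groups than either alone. The pair was chosen for folds of opposite sign, which partly cancel in a sum, so nothing is read from this. It was 19745, 20918, 20054 and 18729 CPM in the 4 ASO libraries in number order, and 15957, 18646, 19858 and 20772 CPM in the 4 controls in number order. The groups overlapped, with means of 19862 ± 903 CPM with ASO, against 18808 ± 2090 CPM in controls, or 19758 ± 1066 CPM (n = 3) without control library 1. miR-221-3p made up 60.4% ± 2.00 of the sum with ASO and 51.3% ± 5.30 in controls.

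**Figure D2:**
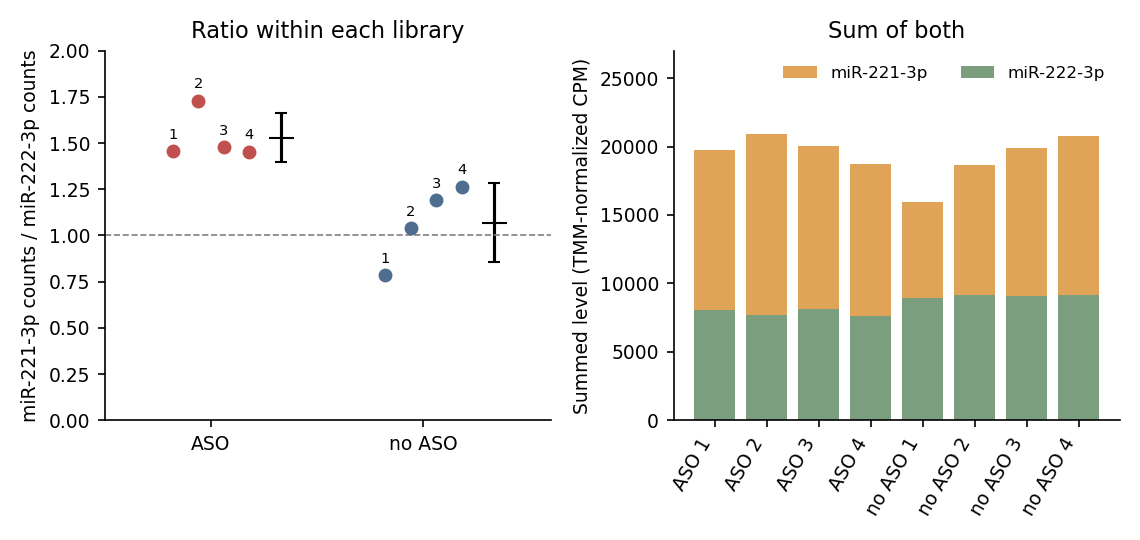
Left, counts of miR-221-3p divided by counts of miR-222-3p in each library, with the mean ± SD of each group of 4 and a dashed line at equal counts. Right, stacked levels of both in TMM-normalized CPM for each library. The ratio is 1.45 to 1.73 in the ASO libraries and 0.784 to 1.26 in the controls, and control library 1 has the lowest ratio and the lowest sum (15957 CPM).

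miR-221-3p had more counts than miR-222-3p in all 4 ASO libraries, and in 3 of the 4 controls, all but control library 1. The contrast that chose the pair enters any order taken over both groups, so no test of it is given. In the controls alone the mean log2 ratio was 0.07, smaller than its SD of 0.31. An exact two-sided sign-flip permutation test gave p = 0.75 (n = 4), where 4 libraries cannot give a p below 0.125. The control values are also part of the contrast that chose the pair, so nothing is read from this test. Adapter ligation and PCR favour some small RNAs over others, so a ratio of counts between microRNAs is not a ratio of molecules. The table's lengths, 24 for miR-221-3p and 25 for miR-222-3p, exceeded the 23 and 21 bases in RefSeq. Of 796 known entries found in RefSeq by name, 375 had the same length in both and 276 were longer in the table. The reads that an entry collected may thus not be the RefSeq strand alone.

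Other neighbouring hairpins show how far co-located microRNAs differed in these libraries. Taking the more abundant listed arm of each hairpin, arms of a single hairpin, a mean count of at least 100 and at most 10 kb on 1 strand gave 31 pairs of neighbours, some of which share a member. In 14 of the 31 (45.2%) the fitted folds had opposite signs. The log2 fold changes of miR-221-3p and miR-222-3p differed by 0.51, which was the eighth largest of the 31, where the median was 0.28. The 7 larger differences included those of miR-503-5p, a relative of the miR-15/16 family, with miR-424-3p (1.06) and with miR-450b-5p (0.96), and those of miR-18a-5p with its neighbours in the miR-17-92 cluster (1.89 and 1.86), which rest on an entry at 0 in some libraries. In 6 of the 31 pairs (19.4%), miR-221-3p with miR-222-3p among them, the within-library ratios of ASO and control libraries did not overlap.

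Among the 31 pairs 3 shared a seed. miR-200b-3p and miR-429, which repress the ZEB factors and so favour the epithelial state, had log2 fold changes of −0.11 and 0.22, a difference of 0.34, and their ratios did not overlap between groups either. miR-195-5p and miR-497-5p, of the miR-15/16 seed family, had 0.06 and 0.26, a difference of 0.20, with overlapping ratios. Within the controls, the log2 ratio of miR-221-3p to miR-222-3p had an SD of 0.31, near the median of 0.30 over the 31 pairs, and within the ASO libraries 0.12, where the median was 0.17. Without control library 1 the control SD was 0.14 and the median over the pairs 0.11. Without ASO library 2 the SD in the ASO libraries was 0.013 and the median 0.17.

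**Figure D3:**
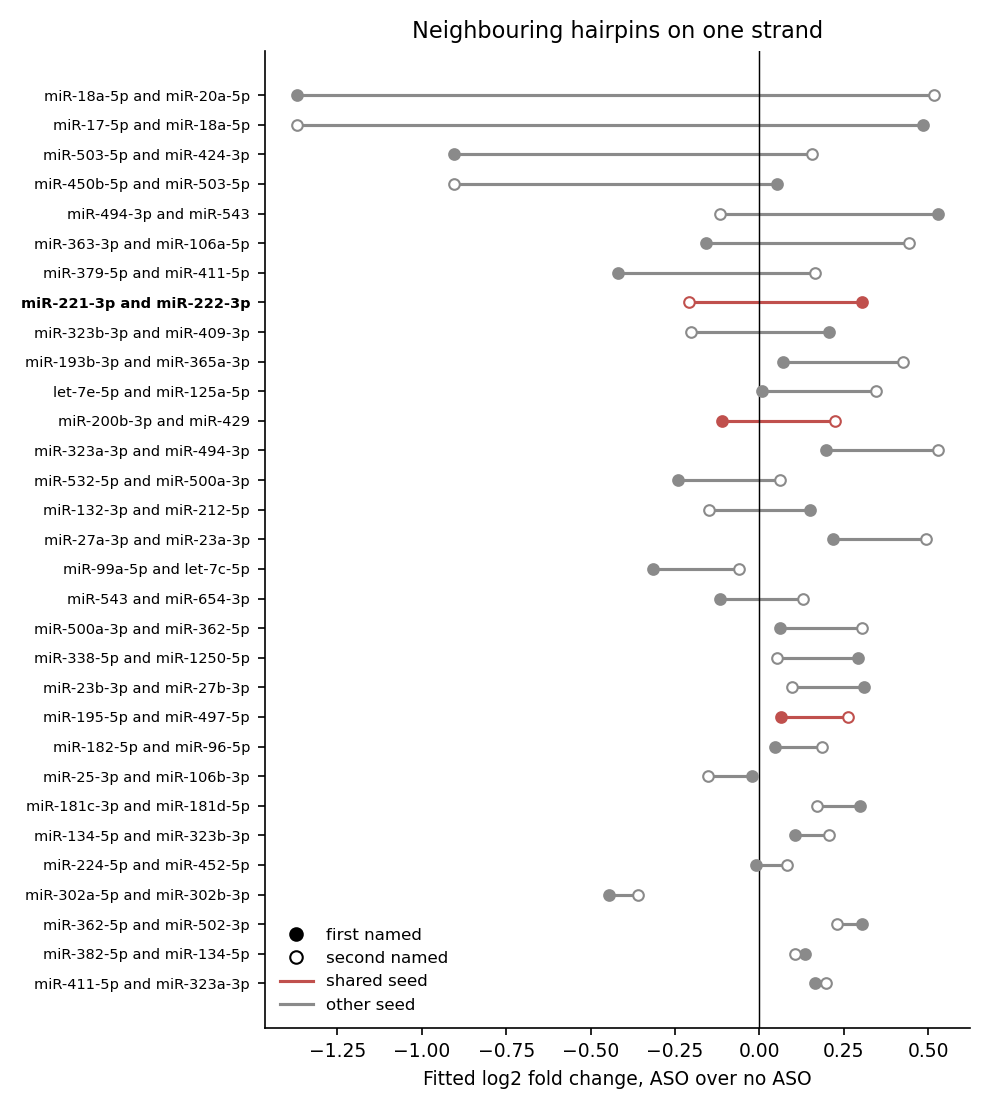
Fitted log2 fold change, ASO over no ASO, of each microRNA in 31 pairs of neighbouring hairpins on 1 strand, sorted by the difference within the pair (filled point, first named; open point, second named; red, shared seed). The miR-221-3p and miR-222-3p pair (0.30 and −0.21) is the eighth from the top, and folds on opposite sides of 0 occur in 14 pairs.

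The microRNAs most like each member over the 8 libraries were different ones. Likeness was Pearson's r of log2(CPM + 1) with each of 319 known entries with a mean count of at least 100, as a description. The 5 most like miR-221-3p were miR-107 (r = 0.99), miR-103a-1-3p and miR-103a-2-3p (0.99 for both), miR-23a-3p (0.99) and miR-92b-3p (0.98). miR-103a-1-3p and miR-103a-2-3p are entries for 1 mature strand and are not separate evidence. With the group means removed r was 0.97 to 0.99 for these 5, so their likeness lay in the libraries within each group. miR-107, of the miR-103/107 family that acts on metabolic genes, averaged 1131 ± 204 CPM with ASO, against 793 ± 242 CPM in controls, with 470 CPM in control library 1 and 754 to 1025 CPM in the other controls. miR-23a-3p, of the cluster with miR-27a and miR-24-2, ran from 678 to 875 CPM with ASO, against 345 CPM in control library 1 and 509 to 671 CPM in the other controls. In all, 63 of the 319 had r over 0.9 with miR-221-3p, so this pattern was shared widely. miR-31-5p, the target, was entry 66 in that order (r = 0.898, or 0.958 with the group means removed).

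For miR-222-3p 2 of the 319 had r over 0.9, miR-1262 (r = 0.96) and miR-503-5p (0.96). Next came miR-302b-3p (0.85), of the pluripotency-associated miR-302 cluster, miR-3177-3p (0.85) and miR-873-3p (0.83). With the group means removed r was 0.33 for miR-1262, 0.29 for miR-503-5p, −0.16 for miR-302b-3p, −0.64 for miR-3177-3p and −0.02 for miR-873-3p, so the likeness lay in the difference between the groups. Since miR-222-3p was chosen for that difference, other entries separated by group had to come near it. miR-503-5p ran from 119.7 to 136.9 CPM with ASO, against 211 to 264 CPM in controls (log2 fold change −0.91), a much larger difference than that of miR-222-3p. miR-1262 ran from 16.6 to 17.9 CPM with ASO, against 22.7 to 26.2 CPM in controls (−0.52). Between miR-221-3p and miR-222-3p themselves r was −0.55, and 226 of the 319 were more like miR-221-3p than miR-222-3p was.

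**Figure D4:**
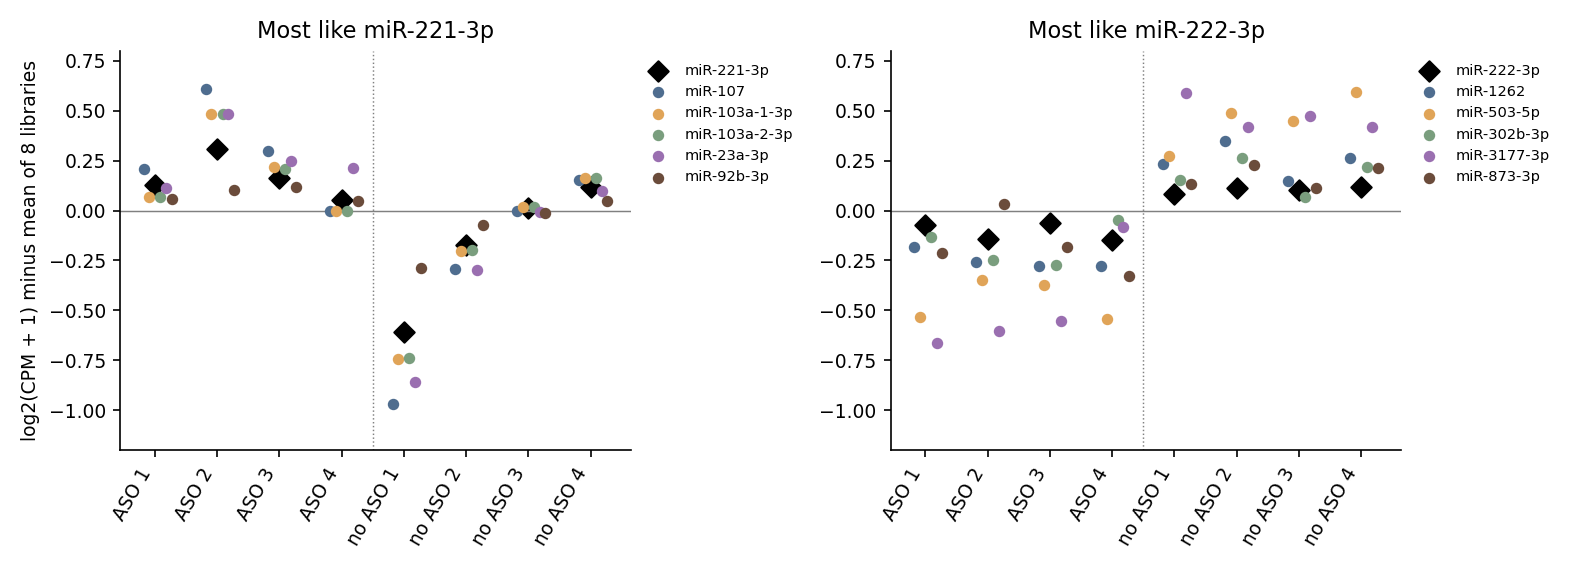
log2(CPM + 1) in each library minus its mean over the 8 libraries, for each member (black diamonds) and the 5 entries most like it (coloured points), with ASO libraries left of the dotted line. The left panel shares a low control library 1 (miR-221-3p and miR-107 among them), and in the right panel most points of the ASO libraries lie below 0 and those of the controls above 0.

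The sequences of the microRNAs most like miR-221-3p are shown because they have letters in common with it that miR-222-3p lacks. Capitals mark the seed, and both miR-103a entries take the 1 sequence of miR-103a-3p:
miR-107: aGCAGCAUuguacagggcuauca
miR-103a-1-3p: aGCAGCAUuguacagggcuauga
miR-23a-3p: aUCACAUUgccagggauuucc
miR-92b-3p: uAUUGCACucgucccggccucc
Each holds AUUG, as does miR-221-3p, from base 7 in miR-107 and miR-103a, base 6 in miR-23a-3p and base 2 in miR-92b-3p. None shares the seed of miR-221-3p. AUUG was searched as written, on the mature strand only, after these values were seen, and was in 11.6% of the 276 entries of this abundance matched to RefSeq by name. Control library 1 stood below the mean of the other controls in 22 of the 32 entries with AUUG (median log2 difference −0.18) and in 137 of the 244 without (median −0.06). Without miR-221-3p and the sequences shown, the first count was 18 of 28 (median −0.06). The difference was −0.60 for miR-221-3p and −0.03 for miR-222-3p. The part of these letters in the result was not tested.

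Other microRNAs known for these targets showed no call in the edgeR test. Over all 745 entries 0.134% were called (1 entry), so nothing is read from that. The lists take any arm of a hairpin, which need not be the arm known for the target. Of the microRNAs known to repress KIT, 0 of 4 were called, 3 had a fold above 1, and the median log2 fold change was 0.20, against 0.01 over all 745 entries, with miR-34a-5p at 359 ± 28.9 CPM with ASO, against 286 ± 60.1 CPM in controls and miR-494-3p at 36.2 ± 6.39 and 25.1 ± 9.88 CPM in the same order. Of others listed for CDKN1B or CDKN1C, 0 of 7 were called and 5 had a fold above 1 (median 0.10), or 3 of 5 with the 3 entries for the 1 strand miR-24-3p counted once, with miR-25-3p at a log2 fold change of −0.02 and miR-455-5p at −0.22.

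Of 11 tested entries of microRNAs that restrain the cell cycle, which act opposite to miR-221 and miR-222, miR-503-5p fell (adjusted p = 0.00854 in edgeR's quasi-likelihood test) and 0 rose. It was the only entry called of all 745 (0.134%). That call was lost with no filter on low counts and without control library 2, where, in the last setting, 0 of the 745 entries were called and 49 had an unadjusted p under 0.05. A fold above 1 was seen in 9 of the 11 (median 0.18), among them miR-16-5p, at 1029 ± 119 CPM with ASO, against 727 ± 194 CPM in controls. Any arm of a listed hairpin was taken, so these 9 include the arms miR-16-3p, miR-34b-3p and miR-424-3p. Of 37 tested entries from other hairpins of the X chromosome, 1 fell, again miR-503-5p, the only entry called of all 745, and 0 rose (median 0.06). The most abundant, miR-224-5p, averaged 4549 ± 100.2 CPM with ASO, against 4584 ± 112 CPM in controls. The largest fold was that of miR-361-3p (log2 fold change −1.13, 473 ± 68.0 CPM with ASO, against 1037 ± 445 CPM in controls).

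Vascular and blood cells also hold miR-221 and miR-222, so their markers were set beside them. HEK293 has no single defining microRNA, and the label was not checked further. The endothelial microRNA miR-126-3p averaged 862 ± 32.2 CPM with ASO, against 874 ± 52.5 CPM in controls. The 6 entries of smooth muscle and mesenchyme summed to 173 to 191 CPM with ASO, against 137 to 194 CPM in controls, and the 5 blood entries to 73.8 to 91.7 CPM with ASO, against 80.4 to 84.0 CPM in controls, with 0 called among the 6 tested in these 2 lists. Of the mesenchymal entries, miR-199a-5p, miR-199a-3p and miR-199b-3p had counts within 1 of each other in 7 of 8 libraries, so they are not separate values and the sum counts them 3 times. Nearly all of the blood sum was miR-486-5p: miR-142-3p, miR-144-5p, miR-150-3p and miR-150-5p were at 0 in 6 or 7 of the 8 libraries, with at most 10 counts in any. The relation of these markers to the members was not tested. Other lists were tested with 0 calls among 1 liver, 2 muscle, 5 neuronal, 4 epithelial and 5 pluripotency entries. Over all 745 entries 0.134% were called, so nothing is read from these counts of calls. The liver microRNA miR-122-5p was at 25.3 to 41.5 CPM with ASO, against 10.3 to 14.3 CPM in controls (log2 fold change 1.30). The pluripotency entries summed to 69.7 to 75.6 CPM with ASO, against 83.8 to 95.7 CPM in controls, though 2 of the 5 tested had a fold above 1. The muscle and the epithelial sums overlapped between groups. Of single entries tested, 8.32% were separated by group in either direction. Apart from that of the neuronal entries, the sums of these lists were all far below that of the members. The neuronal entries summed to 34674 to 42652 CPM with ASO, against 38166 to 48946 CPM in controls. The most abundant, miR-128-1-3p, averaged 18442.5 ± 1878 CPM with ASO, against 21436 ± 3251 CPM in controls. With miR-128-2-3p, an entry for the same strand, left out, the neuronal sum was 20621 to 25151 CPM with ASO, against 22653 to 29130 CPM in controls. All 8 libraries are labelled as HEK293, so these lists give levels in 1 cell line and were not read as shares of cell types.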

How the data were processed

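Per the labels' protocols, a Qiagen miRNeasy kit was used for total RNA and a NEB small RNA kit for the libraries. bcl2fastq 2.20, Trimmomatic 0.30, edgeR 3.4.6 and genome build GRCh38 are named in the submitters' processing notes, and for the aligner, counter and microRNA annotation the tools were not given in the sources used here. The authors deposited whole-number counts per entry and library, with no normalization. The deposited columns headed TPM hold CPM by their values, since they differed from counts scaled to the library total by at most 0.223 CPM, and were used for that check alone. The deposited lengths were set beside RefSeq.

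Libraries were grouped by title. The 745 entries above 0 in at least 4 libraries and with a mean count reaching 10 were fitted together in edgeR 4.0.16 (TMM, trended dispersion, quasi-likelihood test, two-sided, Benjamini-Hochberg adjustment at 0.05), which was checked on simulated counts. The standard error was the size of the log2 fold change divided by the square root of F. DESeq2 1.42.0 and limma 3.58.1 were alternatives. The members, the lists and the tests were chosen with earlier results of these data known. Named microRNAs were the members, the 5 entries most like each, same-seed neighbours, the most abundant and the most changed entry of a list, and any entry called; further examples were named after their values were seen. Of the planned lists, 1 is not reported here. The planned test of the order of both levels over all libraries is not given, since the contrast that chose the pair enters it. Planned 5p to 3p ratios were not computed, since no 5p entry was in the table used here. No label says that a shared library number pairs libraries, and the fit has no block. A count of 0 allows up to 3 counts (0.257 to 0.367 CPM), for counting error only.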

Additional observations from a re-analysis of the deposited data

Results flagged for a closer look

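In the ASO libraries the log2 ratio of miR-221-3p to miR-222-3p had 1 library far from the others. ASO library 2 stood at 0.79 and the other 3 at 0.54 to 0.56, so that the gap was 0.907 of the whole range. Chance puts about 1 in 20 groups of this size past the limit used (Dixon's test), and 6 groups were looked at. In that library miR-221-3p was the highest of the 8 (13256 CPM) and miR-222-3p was within the range of the other ASO libraries (7662 CPM).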

How the results depend on the processing

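The log2 fold change of miR-221-3p stayed above 0 in all 17 alternatives (0.10 to 0.40) and was 0.10 with quantile normalization, and 0.19 to 0.40 on leaving out 1 library. That of miR-222-3p stayed below 0 in all 17 and was −0.37 with quantile normalization, its largest shift, −0.19 with library totals and −0.23 to −0.20 on leaving out 1 library. The difference in log2 ratio was 0.33 to 0.62 over its 11 alternatives, all above 0, and 0.39 to 0.62 on leaving out 1 library. The difference of log2 fold changes within the pair was 0.39 to 0.60 on leaving out 1 library. It was the fifth largest of 17 pairs at most 1 kb apart and the fourth largest of 17 with a mean count of at least 1000. The excess of miR-221-3p over miR-222-3p was 0.34 on the log2 scale over all 8 libraries, 0.28 to 0.44 on leaving out 1 library and 0.074 in the controls alone, a setting chosen after seeing the data. The number of entries called, 1 as reported, was 3 with quantile normalization in limma, 21 with DESeq2, 0 without the filter, 5 with a mean count of at least 100, 4 among known entries alone and 0 to 5 on leaving out 1 library. Among the members, miR-222-3p was called by DESeq2, where 2.85% of entries tested were, and with a mean count of at least 100, where 1.4% were. With library number as a replicate block 0 entries were called (65 at an unadjusted p under 0.05), the log2 fold changes were 0.33 and −0.21, and the difference in log2 ratio was 0.54. Same-numbered libraries' deviations from their group means had r of 0.01, 0.03, 0.30 and −0.04 for numbers 1 to 4, and 1 of the 4 ASO libraries was closest to the control of its own number. Whether same-numbered libraries share more than a label was not tested. The cause of these changes was not tested. Depth did not limit the members, which had at least 70663 counts in each library.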
